A study of Mus musculus with 3 samples.

Results

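The transcripts of the mitochondrial ribosomal proteins were examined in 3 tumours grown from the mouse mammary tumour line NDL(UCD), which is kept by transplantation. The members were the gene symbols that start with Mrpl or Mrps, followed by a number and at most a letter a or b, and they came to 75 of the 21881 symbols in the tables. Of these, 47 carried an Mrpl symbol, for the large subunit, and 28 an Mrps symbol, for the small subunit. The series forms 1 group. Cells of the line were grown in culture and injected into uncleared mammary fat pads of FVB/NJ females 6 to 8 weeks old, and the tumours were cut up and snap-frozen at a greatest width of 5 to 10 mm. The strain entry of the labels reads FVB/N, and tumours of the NDL model are driven by an activated Erbb2 (Neu) transgene under a mouse mammary tumour virus promoter. The 3 tumours came from 3 mice and from the same line. The spread between them therefore joins that of 1 line in separate hosts and that of the libraries, 1 of each tumour. No normal gland and no other tumour stood beside them. The comparisons were therefore made between genes within each tumour, and between tumours.

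The mitochondrial ribosome translates the few messenger RNAs encoded by mitochondrial DNA, all of them for subunits of the respiratory chain and ATP synthase. Its ribosomal RNAs are made in the mitochondrion, whereas all of its proteins are encoded in the nucleus, made in the cytosol and imported. Some of these proteins descend from proteins of the bacterial ribosome, and others were added in the mitochondrial lineage. By their place in the mammalian structure, 49 members belonged to the large subunit, 30 listed with a bacterial homologue and 19 without one. A further 25 belonged to the small subunit, 15 with a bacterial homologue and 10 without. The symbols Mrps18a and Mrps30 denote proteins that sit in the large subunit. Mrps18a and Mrps18b were listed without a bacterial homologue, although both are related to bacterial bS18. Mrps36 is now known as a component of the 2-oxoglutarate dehydrogenase complex and not of the ribosome.

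Values are FPKM, fragments scaled to transcript length and library size, given for tumours 1, 2 and 3 in that order, with the mean ± SD (n = 3 tumours). From the widths of their intervals, the tumours rested on about 11.6, 12.4 and 13.3 M fragments (M, 1000000). The luminal epithelial markers, among them Krt18, Epcam and Erbb2, summed to 1170, 1511 and 1367 FPKM, and all 8 were above the median expressed gene. Erbb2 held 200, 195 and 190 FPKM of these sums, and the part of the transgene in its reads was not tested. Marker sums of other cell types were unequal between tumours. Macrophage markers summed to 273, 499 and 946 FPKM with all 7 lowest in tumour 1, and adipocyte markers to 61.3, 45.5 and 195 FPKM, with Ucp1 listed at 0 in tumours 1 and 2. Fibroblast markers summed to 255, 343 and 286 FPKM, with Postn and Dcn highest in tumour 1 and the other 5 lowest there. Endothelial markers summed to 15.4, 23.4 and 24.0 FPKM and lymphocyte markers to 1.73, 3.77 and 7.68 FPKM. The muscle list summed to 39.4, 49.9 and 59.2 FPKM, nearly all of it Acta1 and Mb, with Ckm, Myh1, Myh2, Myh4 and Tnnt3 at or near 0. In such bulk samples, fewer cells of a type and less RNA per cell cannot be told apart.

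Mitochondrial ribosomal protein transcripts were present at moderate levels in all tumours. The median member had 9.85, 13.8 and 16.9 FPKM in tumours 1, 2 and 3, whereas the median expressed gene, over genes averaging 1 FPKM or more, had 5.89, 6.18 and 6.02 FPKM. By a limma model over all genes with Benjamini-Hochberg adjustment, 50 of the 75 members were above the median expressed gene of their tumour, 2 were below it and 23 were not separated from it at an adjusted p of 0.05. Of all genes tested, 21.6% were above that median and 58.7% below it. Among the 11204 genes averaging 1 FPKM or more, as all members do, 34.8% were above it and 3752 genes below it. Every member was above 1 FPKM, as were 54.2% of all genes, and none was below it, as were 32.5%. Member means covered a 74.2-fold range, between 2.66 FPKM for Mrpl19 and 197 FPKM for Mrps21. Most lay close together, with 7 members under 5 FPKM, 45 between 5 and 20 FPKM and 23 at 20 FPKM or more. Among expressed genes the median member stood at the 73.3rd percentile. 64 members stood above the 50th percentile and 9 above the 90th. The count above the median depends on which genes set it. Above the median of genes averaging 5 FPKM or more were 26 members, and 2055 of all genes in place of 3898.

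All members together took 0.366%, 0.431% and 0.510% of the summed FPKM and 0.226%, 0.282% and 0.338% of the implied fragments. In tumour 1 a median of 24.7 fragments stood behind 1 FPKM of a member, against 71.8 for expressed genes, and 6.01 for Mrps21. Members rested on 78.0 to 1566 implied fragments in tumour 1, 94.3 to 2104 in tumour 2 and 108 to 2917 in tumour 3. Across the 75 members the fragments behind 1 FPKM ran against the mean level with a Spearman rho of -0.56. Over 11069 expressed genes that rho was -0.26. Genes share libraries and are not replicates, and both quantities depend on the transcript length the authors' quantification assigned.

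**Figure D1:**
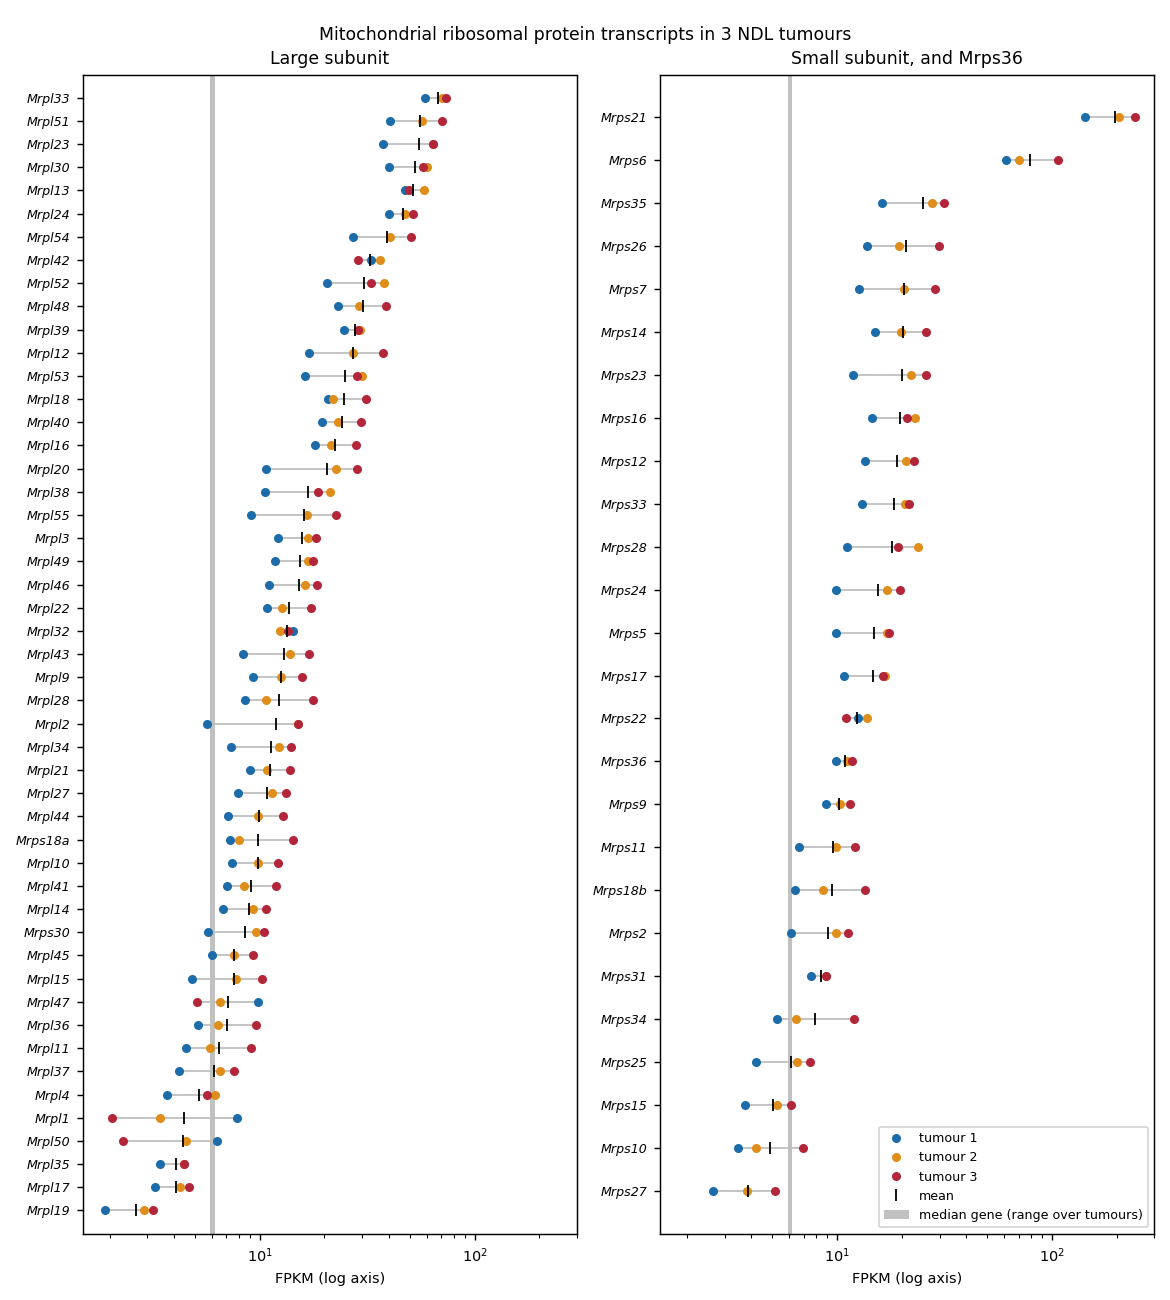
FPKM of each of the 75 members in tumours 1 to 3 (points, log axis) with the mean over tumours (black tick) and the range of the median expressed gene over tumours (grey band), for the large subunit on the left and the small subunit with Mrps36 on the right. Mrps21 and Mrps6 had the highest means, and tumour 1 was the lowest point in 69 rows. Mrpl1, Mrpl50 and Mrpl47 ran the other way, from tumour 1 down to tumour 3.

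Mrps21, the homologue of bacterial bS21 in the small subunit, was the highest member. Its locus lies at chr3:95666575-95674542 on mm9. It had 143, 205 and 244 FPKM (197 ± 51.4), 31.4 times the median expressed gene, with a log2 difference of 4.97 ± 0.25 (SE) and an adjusted p of 8.5e-07 by limma. Mrps21 alone held 12.2%, 12.7% and 13.2% of all member FPKM. Mrps6, the homologue of bS6, followed with 61.2, 70.1 and 106 FPKM (79.2 ± 23.9) at chr16:92058581-92112472. Its locus overlaps that of Slc5a3, a myo-inositol transporter, so that the assignment of reads between the genes is uncertain. These values put both genes above every large subunit member on average. In tumour 1, Mrps6 and the highest large subunit member, Mrpl33, were near each other at 61.2 and 58.5 FPKM. In tumour 2 they had 70.1 and 70.2 FPKM.

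The proximal promoters of 66 members were found in a RefSeq table of GRCm38.p6, which holds 250 bases before and 50 bases after each gene's start. Those of 7 members are printed, chosen either to show the motif types counted further on or for their order of tumours. Mrps21, Mrpl12, Mrps12 and Mrps18b hold an ETS or an NRF1 motif, Mrps11 holds a YY1 motif, and Mrpl1 and Mrpl50 were the members highest in tumour 1 with a large ratio. Each runs 5′ to 3′ on the strand of the gene, and capitals mark a match to CCGGAAG (the core of ETS factors such as GABP), GCGCA, any base and GCGC (NRF1) or AAGATGGCG (YY1) on either strand. Windows are Mrps21 at chr3:95871465-95871764 on the minus strand, Mrpl12 at chr11:120484387-120484686 on the plus strand, Mrps12 at chr7:28741772-28742071 on the minus strand, Mrps18b at chr17:35916391-35916690 on the minus strand, Mrps11 at chr7:78782881-78783180 on the plus strand, Mrpl1 at chr5:96209865-96210164 on the plus strand and Mrpl50 at chr4:49521034-49521333 on the minus strand.
Mrps21: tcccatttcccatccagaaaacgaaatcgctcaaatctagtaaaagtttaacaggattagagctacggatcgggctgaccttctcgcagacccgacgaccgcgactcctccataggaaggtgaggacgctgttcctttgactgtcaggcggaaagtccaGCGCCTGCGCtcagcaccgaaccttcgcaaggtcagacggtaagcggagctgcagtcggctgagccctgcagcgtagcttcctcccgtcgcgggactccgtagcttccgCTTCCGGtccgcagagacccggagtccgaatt
Mrpl12: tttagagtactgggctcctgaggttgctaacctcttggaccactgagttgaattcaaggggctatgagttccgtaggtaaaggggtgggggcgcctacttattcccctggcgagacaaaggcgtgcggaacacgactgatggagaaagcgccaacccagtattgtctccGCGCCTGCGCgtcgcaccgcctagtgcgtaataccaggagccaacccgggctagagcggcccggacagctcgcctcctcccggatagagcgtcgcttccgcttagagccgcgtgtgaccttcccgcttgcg
Mrps12: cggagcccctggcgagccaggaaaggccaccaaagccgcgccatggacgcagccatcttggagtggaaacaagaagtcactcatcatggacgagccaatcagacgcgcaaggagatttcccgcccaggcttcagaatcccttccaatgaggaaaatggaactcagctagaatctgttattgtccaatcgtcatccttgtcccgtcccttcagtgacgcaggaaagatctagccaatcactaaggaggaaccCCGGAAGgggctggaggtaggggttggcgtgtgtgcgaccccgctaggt
Mrps18b: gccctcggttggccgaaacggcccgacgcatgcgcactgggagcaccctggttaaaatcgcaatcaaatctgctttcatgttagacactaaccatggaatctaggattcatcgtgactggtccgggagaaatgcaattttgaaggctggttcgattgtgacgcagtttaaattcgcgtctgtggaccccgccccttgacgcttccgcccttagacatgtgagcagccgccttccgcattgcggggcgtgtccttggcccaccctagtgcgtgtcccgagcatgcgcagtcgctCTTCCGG
Mrps11: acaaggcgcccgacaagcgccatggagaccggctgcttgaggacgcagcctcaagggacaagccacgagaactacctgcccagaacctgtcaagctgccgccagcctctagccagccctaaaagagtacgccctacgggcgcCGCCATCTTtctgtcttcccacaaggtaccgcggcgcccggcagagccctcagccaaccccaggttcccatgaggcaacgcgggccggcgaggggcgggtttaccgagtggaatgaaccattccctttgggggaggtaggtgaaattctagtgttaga
Mrpl1: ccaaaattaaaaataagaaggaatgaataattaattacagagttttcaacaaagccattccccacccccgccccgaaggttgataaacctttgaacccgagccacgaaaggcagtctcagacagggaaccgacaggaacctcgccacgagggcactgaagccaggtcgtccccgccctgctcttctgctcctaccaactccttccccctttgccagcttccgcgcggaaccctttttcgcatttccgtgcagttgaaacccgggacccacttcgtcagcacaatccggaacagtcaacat
Mrpl50: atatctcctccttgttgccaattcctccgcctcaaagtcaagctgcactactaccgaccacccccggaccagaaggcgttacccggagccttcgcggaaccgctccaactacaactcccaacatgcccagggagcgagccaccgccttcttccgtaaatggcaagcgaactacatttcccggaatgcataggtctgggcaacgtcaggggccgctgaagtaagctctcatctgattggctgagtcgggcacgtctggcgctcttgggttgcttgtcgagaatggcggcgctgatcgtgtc

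With the first base of the transcript counted as 1, the ETS match of Mrps21 began at base 19 and its NRF1 match at base -91. The NRF1 match of Mrpl12 began at base -81, the ETS match of Mrps12 at base 2, that of Mrps18b at base 44, and the YY1 match of Mrps11 at base -108. The windows of Mrpl1 and Mrpl50 held none of the 3 motifs. Neither did those of Mrps6, Mrpl2 and Mrpl20, which were lowest in tumour 1. Among other members higher in tumour 1 than in tumour 3, Mrpl32, Mrpl42 and Mrps22 each held 1 of the motifs and Mrpl47 none. ETS matches lay in 33.3% of the 66 member windows, in 19.2% of 7755 windows of expressed genes and in 9.12% of all 27025 windows. NRF1 matches lay in 18.2% of member windows, 11.2% of expressed and 4.78% of all windows. YY1 matches lay in 12.1% of member windows, 3.37% of expressed and 1.49% of all windows. These 3 motifs are known from promoters of nuclear genes for mitochondrial proteins. In all, 37 of the 66 windows, or 56.1%, held at least 1 of them, as did 30.4% of expressed and 14.0% of all windows. For comparison, the letters TATAAA lay in 6.06% of member windows, 7.07% of expressed and 14.2% of all windows, and CCAAT in 40.9%, 38.8% and 37.9%. Members with an ETS match had a median of 17.1 FPKM and those without it 12.1 FPKM. With an NRF1 match the median was 13.0 FPKM, against 13.3 FPKM without it, and with a YY1 match 8.30 FPKM, against 14.1 FPKM without it. A match of letters is not a measured binding site, and no test was made of these shares.

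**Figure D2:**
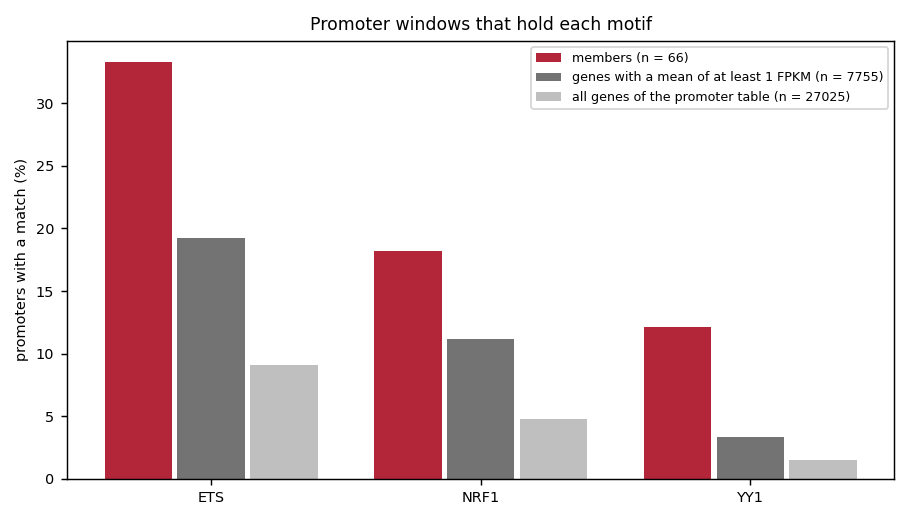
Share of promoter windows (%, 300 bases each, both strands) that held an ETS, NRF1 or YY1 motif, for 66 members (red), 7755 genes averaging 1 FPKM or more (dark grey) and all 27025 genes of the promoter table (light grey). For each motif the members had the highest share, at 33.3%, 18.2% and 12.1%.

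Among the 30 large subunit proteins with a bacterial homologue, 20 were above the median expressed gene, 1 was below it and 9 were not separated from it. The highest was Mrpl33, the homologue of bL33, with 58.5, 70.2 and 73.6 FPKM (67.4 ± 7.93) at chr5:31916324-31925017. Its log2 difference from the median expressed gene was 3.45 ± 0.21 (SE), with an adjusted p of 3.3e-06 by limma. Mrpl23, the homologue of uL23 beside the exit of the peptide tunnel, had 37.3, 63.7 and 64.1 FPKM (55.0 ± 15.4). Mrpl30, the homologue of uL30, had 39.8, 60.3 and 57.7 FPKM (52.6 ± 11.2). Tumour 1 was below both others in each of these 3 genes, while tumours 2 and 3 lay close together. Mrpl12, whose bacterial counterpart forms the stalk that recruits translation factors and which also binds the mitochondrial RNA polymerase, had 16.9, 27.3 and 37.3 FPKM (27.2 ± 10.2), 4.23 times the median expressed gene with an adjusted p of 0.00022 by limma. Mrpl2, the homologue of uL2 near the peptidyl transferase centre, had 5.71, 15.01 and 15.08 FPKM (11.9 ± 5.39). Its tumour 1 value lay just under the median expressed gene of that tumour and the other two well above it, and its adjusted p by limma was 0.04. That call was lost without tumour 2, without tumour 3 and without trend and robust moderation, at adjusted p values of 0.30, 0.11 and 0.061.

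Of the 6 lowest members, 4 were also in this class. Mrpl19, the homologue of bL19 at the interface with the small subunit, had 1.90, 2.90 and 3.18 FPKM (2.66 ± 0.672) at chr6:81907840-81915943. It was below the median expressed gene in every tumour, at 0.441 times its level with an adjusted p of 0.0036 by limma. Its locus overlaps that of AW146020, which makes the assignment of its reads uncertain too. Mrpl17, the homologue of bL17, had 3.26, 4.26 and 4.67 FPKM (4.06 ± 0.724) and Mrpl35, that of bL35, had 3.42, 4.45 and 4.42 FPKM (4.10 ± 0.584). Both means lay under the median expressed gene, with adjusted p values of 0.055 and 0.057 by limma, and of 0.042 and 0.041 without trend and robust moderation. Mrpl1, the homologue of uL1 at the stalk where spent transfer RNA leaves, had 7.88, 3.43 and 2.06 FPKM (4.46 ± 3.04). Mrpl1 stood above the median expressed gene in tumour 1 and below it in tumours 2 and 3, and its adjusted p by limma was 0.15. Without tumour 1 it was called below the median, with an adjusted p of 0.00075. Proteins of 1 particle thus had transcripts spread over a wide range of FPKM, and Mrpl33 exceeded Mrpl19 in every tumour by far more than the spread of either gene. FPKM is scaled to transcript length, and in implied fragments the 2 genes were much closer. Mrpl33 rested on 453, 523 and 611 fragments and Mrpl19 on 260, 389 and 476. Mrpl17, among the lowest in FPKM, rested on 625, 783 and 959 fragments.

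Of the 19 large subunit proteins listed without a bacterial homologue, 13 were above the median expressed gene, none was below it and 6 were not separated. Mrpl51 led them with 40.5, 56.6 and 70.5 FPKM (55.9 ± 14.97), 8.90 times the median expressed gene with an adjusted p of 1.1e-05 by limma. Mrpl39 had 24.7, 29.4 and 28.7 FPKM (27.6 ± 2.53), and its coefficient of variation of 9.16% was among the 4 smallest of all members. The median coefficient of variation was 27.4% over members and 27.7% over expressed genes. Mrpl50 was the lowest of the class, with 6.35, 4.55 and 2.32 FPKM (4.41 ± 2.02). It was not separated from the median, with an adjusted p of 0.14 by limma, but was called below it without tumour 1, at 0.0073. Mrps18a, which sits in the large subunit despite its symbol, had 7.25, 8.01 and 14.3 FPKM (9.86 ± 3.89). Tumour 3 stood apart there, and the gene was not separated from the median expressed gene, with an adjusted p of 0.059 by limma. It was called above without tumour 1, with trends removed and with a pseudocount of 0.01, at adjusted p values of 0.0080, 0.011 and 0.047.

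In the small subunit, 11 of the 15 proteins with a bacterial homologue were above the median expressed gene, none was below and 4 were not separated. Beside Mrps21 and Mrps6, Mrps7, the homologue of uS7 at the site where messenger RNA leaves, had 12.7, 20.5 and 28.6 FPKM (20.6 ± 7.97). Mrps12, the homologue of uS12 in the decoding centre, had 13.5, 20.9 and 22.8 FPKM (19.1 ± 4.92), 3.05 times the median expressed gene with an adjusted p of 0.00046 by limma. Both genes were lowest in tumour 1 and above the median expressed gene in each tumour. The lowest of the class was Mrps10 with a mean of 4.87 FPKM, named here after its value was seen.

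Of the 10 small subunit proteins listed without a bacterial homologue, 5 were above the median expressed gene, 1 was below it and 4 were not separated. Mrps26 had 13.8, 19.4 and 29.9 FPKM (21.0 ± 8.13) and Mrps23 had 11.9, 22.004 and 26.0 FPKM (19.97 ± 7.30), and both were above the median with adjusted p values of 0.00061 and 0.00088 by limma. Mrps34 had 5.28, 6.45 and 12.0 FPKM (7.92 ± 3.61), with tumour 3 apart from the others. Mrps31 had 7.57, 8.85 and 8.92 FPKM (8.44 ± 0.758), a narrow spread as deposited. With GC and length trends removed Mrps31 had 5.84, 8.90 and 11.6 FPKM and a ratio of 1.98 between the highest and the lowest tumour. Neither Mrps34 nor Mrps31 was separated from the median, with adjusted p values of 0.36 and 0.074 by limma, though Mrps31 was called above it without tumour 1, at 0.028. Mrps27, a pentatricopeptide repeat protein that binds RNA, had 2.64, 3.82 and 5.14 FPKM (3.87 ± 1.25) and was below the median expressed gene with an adjusted p of 0.046 by limma. That call was lost without tumour 1 and without tumour 2, at adjusted p values of 0.078 and 0.28, and the locus overlaps that of 6430562O15Rik. Mrps27 and Mrpl19 were the only members called below the median.

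The 3 paralogues related to bacterial bS18 were at unequal levels. Mrps18b had 6.39, 8.60 and 13.5 FPKM (9.51 ± 3.66), near Mrps18a. It was not separated from the median expressed gene, with an adjusted p of 0.079 by limma, but was called above it without tumour 1 and with trends removed, at 0.0043 and 0.013. Mrps18c, whose symbol falls outside the member rule because of its letter c and which is the form that takes the place of bS18, had 47.0, 42.9 and 53.6 FPKM (47.8 ± 5.43). It was above both other paralogues in each of the 3 tumours. Its lowest tumour was tumour 2, whereas Mrps18a and Mrps18b were lowest in tumour 1. Mrps36, the non-ribosomal member, had 9.85, 11.1 and 11.7 FPKM (10.9 ± 0.946), 1.79 times the median expressed gene with an adjusted p of 0.0076 by limma, a call that was lost without tumour 2, at 0.16. Its tumours differed by less than most members did, with a coefficient of variation of 8.68%.

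The median large subunit member had 9.35, 12.7 and 16.9 FPKM, and the median small subunit member had 10.8, 17.1 and 17.5 FPKM. On the log2 scale with 0.1 FPKM added, the difference, large minus small, was -0.21, -0.42 and -0.05, with a mean of -0.23 ± 0.19 (SD, n = 3). It changed with the measure and was -0.03 with means over members and 0.01 when subunits were taken from the symbols, so no order of the subunits stands across these choices. Members as a whole lay far under the cytosolic ribosomal proteins, which build the ribosome of the cytosol. The median member had 9.85, 13.8 and 16.9 FPKM, against 147, 234 and 243 FPKM for the median of 83 cytosolic ribosomal protein symbols. The log2 difference, members minus cytosolic, was -3.89, -4.07 and -3.84, with a mean of -3.93 ± 0.12 (SD, n = 3), so that cytosolic transcripts were 15.3-fold higher. With means of log2 values in place of medians the difference was -3.07. Cytosolic ribosomal protein genes have many processed pseudogenes, among which reads may be split.

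Many member genes stood head to head with another gene, starting on opposite strands within 1000 bp of each other. This held for 23 of 75 members, or 30.7%, for 15.1% of expressed genes and for 9.96% of all genes with a known strand. Strands were taken by gene name from an annotation of another build, and distances from the files' mm9 coordinates. The pairs and values in this paragraph were chosen after they were seen, and no test was made of these shares. In 1 pair both genes were members. Mrps11, at chr7:85928017-85937874, and Mrpl46 started 41 bp apart. Mrps11 had 6.63, 9.88 and 12.1 FPKM, and Mrpl46 had 11.1, 16.3 and 18.5 FPKM, so that both were lowest in tumour 1 and highest in tumour 3. Mrps12 started 209 bp from Sars2, the mitochondrial seryl-tRNA synthetase, and had 13.5, 20.9 and 22.8 FPKM, against 1.06, 1.47 and 1.97 FPKM for Sars2. In other pairs the neighbours differed in level or order. Mrpl49 averaged 15.5 ± 3.20 FPKM, whereas Fau, which encodes a fusion of a ubiquitin-like protein and a cytosolic ribosomal protein, averaged 436 ± 140 FPKM (SD, n = 3 each). Mrpl47 had 9.80, 6.54 and 5.12 FPKM, against 34.4, 60.7 and 62.6 FPKM for Ndufb5, a subunit of respiratory complex I. Mrpl30 was lowest in tumour 1, whereas its neighbour Mitd1 was highest there, with 17.6, 7.23 and 4.23 FPKM.

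The tumours differed in the total of member transcripts. Member FPKM summed to 1166, 1620 and 1857 in tumours 1, 2 and 3. 69 of the 75 members were lowest in tumour 1, as were 59.6% of expressed genes, and 58 were highest in tumour 3, as were 47.4%. Tumour 3 was lowest for 5 members and for 31.4% of expressed genes. Tumours were compared gene by gene with Cochran's Q on the deposited intervals, with Benjamini-Hochberg adjustment and a required ratio of at least 2 between the highest and the lowest tumour. This compares 3 libraries and covers counting and assignment error only. It called 17 members, or 22.7%, against 32.5% of expressed genes, so that members were not called more often than genes in general. By adjusted p alone, 72 members and 91.6% of expressed genes were called. Of the 17 members, 14 were highest in tumour 3, 1 in tumour 2 and 2 in tumour 1, while 13.2% of expressed genes were called and highest in tumour 3 and 15.7% in tumour 1. The count was 0 without tumour 1, 16 without tumour 2 and 4 without tumour 3. Over all genes it fell as well, from 3595 to 633, 3282 and 1562 in that order. Of the genes named next, Mrpl1, Mrpl20 and Mrpl2 kept a ratio of 2 without tumour 3.

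The widest ratio was that of Mrpl1, whose 7.88 FPKM in tumour 1 were 3.83 times its 2.06 FPKM in tumour 3, with an adjusted p of 2.7e-38 by Cochran's Q. Mrpl50 had the same order, with a ratio of 2.74 between 6.35 and 2.32 FPKM. All other members named as called were lowest in tumour 1. Mrpl20, the homologue of bL20, had 10.7, 22.5 and 28.3 FPKM and a ratio of 2.66. Mrpl2 had a ratio of 2.64, and Mrpl55, the homologue of bL31, with 9.12, 16.6 and 22.6 FPKM, one of 2.47. In these 3 genes tumours 2 and 3 were both above tumour 1. Mrps34 had a ratio of 2.28, Mrps7 of 2.26, Mrpl12 of 2.21, Mrps23 of 2.19, Mrps26 of 2.16 and Mrps18b of 2.12. At the other end, Mrpl32, the homologue of bL32, had 14.2, 12.4 and 13.6 FPKM with a ratio of 1.15 and an adjusted p of 0.36 by Cochran's Q. Mrps36 had a ratio of 1.19 and Mrps31 of 1.18, with adjusted p values of 0.29 and 0.063.

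The median log2 ratio of tumour 3 over tumour 1 was 0.76 over members and 0.39 over all expressed genes. Relative to that shift, which puts the median of expressed genes at 0 by construction, 61 members were higher in tumour 3. With a median-of-ratios scaling between tumours, 62 members were higher in tumour 3 and 51 were lowest in tumour 1. The median log2 ratio of expressed genes was then 0.01. Under this scaling 5 members were called different, as were 3127 of all genes. Macrophage marker sums, at 273, 499 and 946 FPKM, had the same order of tumours as the member sums. Of the 7 macrophage markers, 6 were called different between tumours, against 32.5% of expressed genes. With GC and length trends removed, the count was 2 of 7, against 16.4% of genes. The adipocyte marker sum was highest in tumour 3 and was mostly Fabp4, with 55.7, 41.6 and 173 FPKM, while Cidea was lowest there. Their part in the member values was not tested.

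The difference between tumours followed base composition. Transcripts of members held 41.4% to 60.6% GC with a median of 51.1%, and those of expressed genes a median of 50.8%. Across the 75 members, GC content and the log2 ratio of tumour 3 over tumour 1 had a Spearman rho of 0.54, and across 10945 expressed genes it was 0.67. In the 25 members of lowest GC content, up to 48.9%, the median log2 ratio was 0.53. It was 0.75 in the middle 25 members and 0.84 in the 25 of highest GC content. The 6 members that were higher in tumour 1 than in tumour 3 were Mrpl1, Mrpl50, Mrpl47, Mrpl42, Mrps22 and Mrpl32, and all 6 were among the 25 of lowest GC content. Mrpl47, Mrpl42 and Mrps22 were named after their values were seen. Mrpl42 had 32.8, 36.4 and 28.6 FPKM and Mrps22 had 12.6, 13.8 and 10.96 FPKM.

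When the trends of GC content and transcript length were removed from each tumour, the values changed for many members. The median log2 ratio of tumour 3 over tumour 1 was then 0.21 over members, and 60 of the 75 were higher in tumour 3. Tumour 1 was lowest for 42 members. Cochran's Q called 10 of the 75 members, against 16.4% of genes, and only Mrps26 and Mrpl15, the second named after its values were seen, were called both before and after the removal. None of the 10 was highest in tumour 1. Mrpl1 then had 4.61, 3.78 and 3.21 FPKM and a ratio of 1.44, and Mrpl50 had 4.13, 4.82 and 3.39 FPKM and a ratio of 1.42. Both fell short of the ratio of 2. Mrps26 kept a ratio of 2.07, with 14.5, 18.6 and 30.0 FPKM. Mrpl32, even across tumours as deposited, then had 8.99, 13.3 and 20.1 FPKM. After the removal the relation of GC content and the ratio was turned, with a Spearman rho of -0.48 over members, and the median log2 ratio was 0.66, 0.34 and 0.04 in the members of low, middle and high GC content. The removal fitted all expressed genes and did not flatten the members. With 1 library of each tumour, differences of the tumours and of the libraries cannot be told apart.

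**Figure D3:**
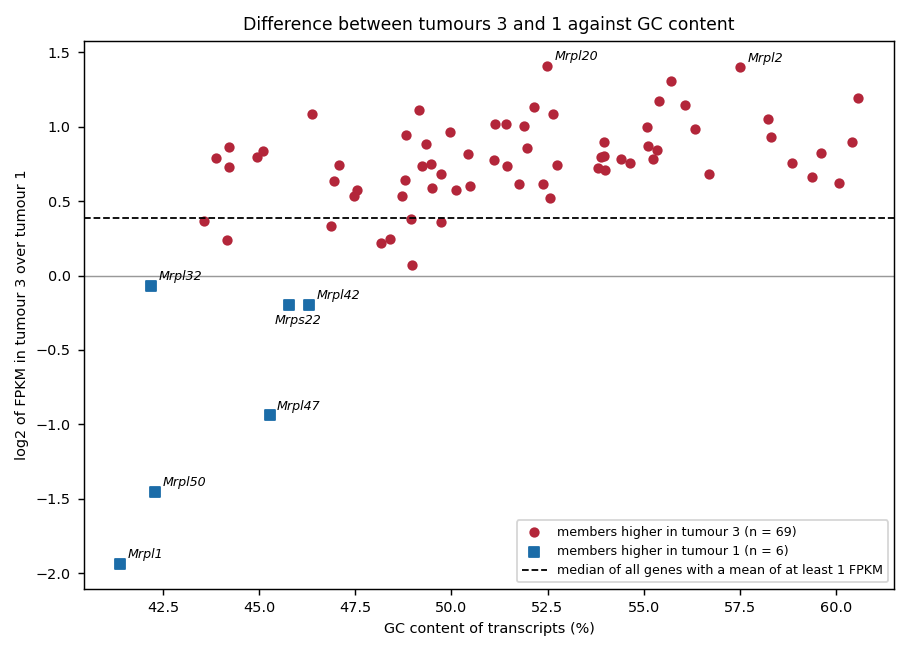
Log2 ratio of FPKM in tumour 3 over tumour 1 against the GC content of transcripts (%) for 75 members, with members higher in tumour 3 in red circles and the 6 members higher in tumour 1 in blue squares. The dashed line is the median of expressed genes at 0.39, and the blue squares lie among the members of lowest GC content.

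Other genes of mitochondrial translation were read from lists of ribosomal proteins outside the symbol rule, translation factors, assembly factors and regulators. For comparison, 21.6% of all genes tested were above the median expressed gene by limma and 58.7% below it. Of genes averaging 1 FPKM or more, 34.8% were above it. Between tumours, 32.5% of expressed genes were called different, and 16.4% with trends removed. Of 8 further mitochondrial ribosomal proteins, 5 were above the median expressed gene by limma, 1 was below it and 2 were not separated, and 4 were called different between tumours, or 1 with trends removed. Their median was 15.7, 17.6 and 21.1 FPKM. Aurkaip1, a small subunit protein, was highest with 37.5, 60.0 and 76.2 FPKM (57.9 ± 19.4), and Mrp63, now Mrpl57, was lowest with a mean of 2.82 FPKM. These 8 proteins were thus in the range of the members.

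Of 12 translation factors, 2 were above the median expressed gene, 4 below it and 6 not separated, and 6 were called different between tumours, or 3 with trends removed. Their median was 4.01, 4.60 and 5.05 FPKM, under that of the members in each tumour. Tufm, the elongation factor that brings aminoacyl-tRNA to the ribosome, was highest with 12.7, 20.4 and 31.4 FPKM (21.5 ± 9.39). Mtrf1, a release factor homologue, was lowest with 2.23, 1.11 and 0.726 FPKM, and its order of tumours was opposite to that of Tufm. Of 17 assembly factors found, 1 was above the median expressed gene, 8 below it and 8 not separated, and 6 were called different, or 1 with trends removed. Rbfa, which acts on the small subunit RNA, was highest at 16.01 ± 5.73 FPKM, and Nsun4, a ribosomal RNA methyltransferase that also joins in the assembly of the subunits, was lowest at 1.59 ± 0.401 FPKM (SD, n = 3 each).

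Of 13 regulators of mitochondrial gene expression found, 1 was above the median expressed gene, 3 below it and 9 not separated, and 5 of the 12 averaging 1 FPKM or more were called different, or 2 with trends removed. Yy1, the zinc finger factor that binds the YY1 motif, was highest with 20.7, 17.3 and 14.3 FPKM (17.5 ± 3.22), and Ppargc1b, a coactivator of mitochondrial genes, was lowest with a mean of 0.127 FPKM. The factors of the other counted motifs were named for that reason after their values were seen. Gabpa, the ETS-domain subunit of GABP, had 13.8, 5.38 and 3.41 FPKM and was called different between tumours as deposited, with a ratio of 4.06. Nrf1 had 5.95, 10.4 and 12.0 FPKM and a ratio of 2.01, also called. Gabpa was highest in tumour 1, where most members were lowest, and Nrf1 was lowest there. Members with and without an ETS match had median log2 ratios of tumour 3 over tumour 1 of 0.75 and 0.75. For the NRF1 match these medians were 0.65 and 0.76. For the YY1 match, held by 8 members, they were 0.88 and 0.74.

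**Figure D4:**
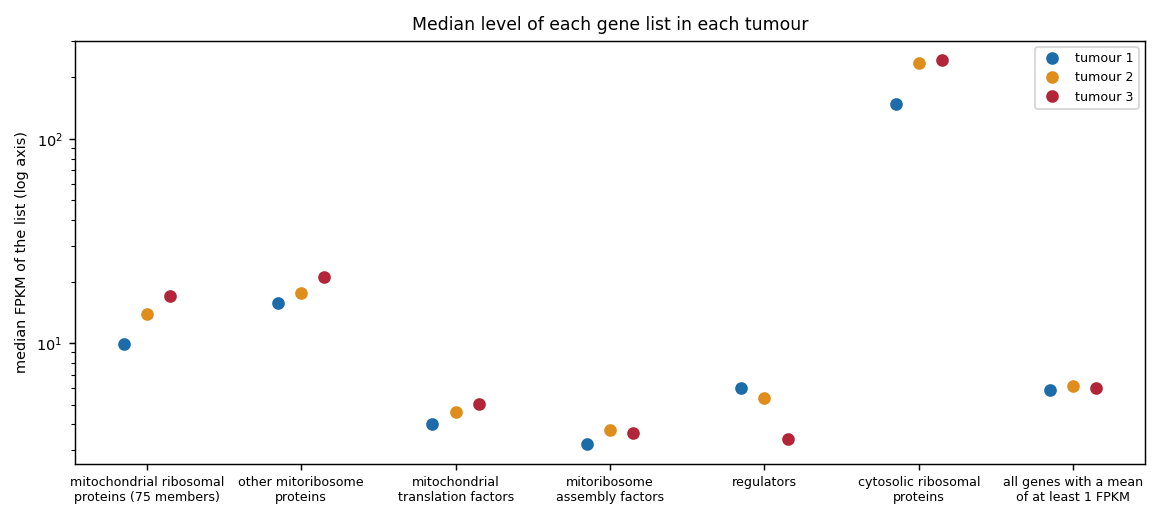
Median FPKM (log axis) in tumours 1 to 3 of the 75 members, the 8 mitochondrial ribosomal proteins outside the symbol rule, the lists of translation factors, assembly factors and regulators, the 83 cytosolic ribosomal proteins and all genes averaging 1 FPKM or more. The medians of members and of cytosolic ribosomal proteins were lowest in tumour 1, and that of all expressed genes stayed between 5.89 and 6.18 FPKM. The median of the regulators was highest in tumour 1, although 5 of the 12 averaging 1 FPKM or more were lowest there.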

How the data were processed

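Total RNA of 3 snap-frozen tumours was depleted of ribosomal RNA and made into directional libraries primed with random hexamers, with an input of 50 ng, per the labels' protocols. The tables the authors deposited give each gene's FPKM, bounds of its interval and a status, per the file headers. TopHat, Cufflinks and mm9 are named in the submitters' processing notes without roles. Not given in the sources used here are versions, annotation and the use of strand, so reads of overlapping and antisense genes cannot be told apart. Coordinates are mm9 as in the files, counted from 1.

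Each table held 22310 rows, which gave 21881 symbols once repeated symbols were added up. All 75 members had status OK. Tumours were numbered in accession order. The half-width of an interval was taken as 2 standard errors, and implied fragments as the square of FPKM over its standard error. They were whole within 0.1 fragments in all tumours for 53 members, and 9 member loci overlap another gene. No count test was run on them.

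Levels were tested on log2(FPKM + 0.1), minus that of the tumour's median expressed gene or of 1 FPKM, with an intercept-only model in limma 3.58.1 (R 4.3.3) with trend and robust moderation. This scale understates changes of low genes. Tumours were compared with Cochran's Q (2 degrees of freedom) for genes averaging 1 FPKM or more. Both p-values were Benjamini-Hochberg adjusted over all genes, and called under 0.05. GC content and length came by gene name from GENCODE vM21 for 75 members and 98.4% of genes. Their trends were removed by lowess (span 0.3). Promoters are RefSeq windows of GRCm38.p6.

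The members and lists were chosen with earlier results of these data known. Named genes are the 6 highest and 6 lowest members, the 5 largest and 4 smallest coefficients of variation, the 10 largest ratios among members called different between tumours, the Mrps18 paralogues, Mrpl12, Mrps12 and Mrps36, and the highest and lowest gene of each other list. Markers were reported as sums. Alternatives covered the pseudocount, filter, moderation, repeated symbols, scaling, thresholds, trends and each tumour left out.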

Additional observations from a re-analysis of the deposited data

How the results depend on the processing

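All 75 members stayed above 1 FPKM under every alternative run, as did 8841 to 11705 of all genes. The count of members above the median expressed gene was 50 and became 26 against the median of genes averaging 5 FPKM or more. For all genes these counts were 3898 and 2055. With 1 tumour left out the count was 37 to 59 members, against 2775 to 4299 genes. Under other choices of pseudocount, filter, moderation, repeated symbols or trends it was 49 to 56 members, against 3862 to 4383 genes. Against that higher median, Mrpl2, Mrps34, Mrps36 and Mrps31 had the opposite sign, with log2 differences of -0.14, -0.69, -0.15 and -0.51. So had Mrps18a and Mrps18b, at -0.36 and -0.41, not called in either case. The cause, by construction, is the higher level compared with.

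The count of members different between tumours was 17, against 3595 of 11069 genes tested. Median-of-ratios scaling gave 5 members and 3127 genes, and a ratio of at least 1.5 gave 61 members and 7593 genes. Removal of the GC and length trends left 10 members and 1791 of 10898 genes. Among genes averaging 5 FPKM or more, 14 members and 1820 genes were called. Leaving 1 tumour out gave 0 to 16 members and 633 to 3282 genes. With trends removed the ratio of Mrpl32 was 2.24 with tumour 3 highest, and tumour 1 was lowest for 42 members in place of 69. Large minus small subunit was -0.0288 with means and 0.00909 by symbols, and -0.31 to -0.13 with 1 tumour left out. Members minus cytosolic was -3.07 with means, and -3.98 to -3.86 with 1 tumour left out. Beyond the constructions named, the cause was not tested.

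Chosen after seeing the data, the omission of members with overlapping loci or fractional implied fragments left 52, of which 37 were above the median, 13 differed and 47 were lowest in tumour 1. Across single named genes and settings, levels stayed called or not called in 240 cases, gained a call in 17 and lost one in 9, and in 4 the sign was opposite with a call gained or lost. For ratios these were 134, 12, 36 and, for Mrpl32, 1. No paired analysis was possible because the tumours form 1 group. The test between tumours covers counting error only. Some members rest on few fragments per FPKM, 6.01 for Mrps21 in tumour 1.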
